A study of Mus musculus with 3 samples.

Results

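Kit, Epor, Csf3r, Csf2ra, Csf2rb, Il3ra and Il6st encode receptors, or receptor subunits, for cytokines that act on blood cells. They were chosen by gene name, as 7 of the 27994 genes in a single-cell count table of adult cardiac endothelium cultured towards blood, and all 7 were detected. The choice was made with earlier results of these data known, so counts of members called are descriptions. They are described here across the 7 clusters that the study assigned to its cells, numbered 0 to 6, and by their joint detection in single cells of clusters 5 and 6.

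The cells were GFP+ cardiac endothelial cells of adult female GFP transgenic mice, sorted as CD31+ VE-Cad+ and negative for CD41, CD45, PDGFRA and PDGFRB. They were taken fresh, at 0 h, or after 24, 48, 72 or 96 h in co-aggregates with PDGFRA+ stromal cells of the Mesp1 lineage (Mesp1der PSCs) from E11.5 embryos, and were then sorted again as GFP+ CD31+ VE-Cad+ PDGFRA-. The co-aggregates were grown in serum with interleukin-3, stem cell factor and Flt3 ligand at 100 ng/ml each, so the ligands of Kit and of the Il3ra and Csf2rb pair were supplied to the cultured cells. Cells of all 5 times were pooled, and 3 such pools, A, B and C, were made, all from the same kind of donor and stroma, with no group kept apart as a control.

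The table held 9562 cells and 252339042 unique molecular identifiers (UMIs, 1 per captured transcript). Its barcodes carry 3 library suffixes, with 3507, 3958 and 2097 cells and median depths of 23651, 13440.5 and 38312 UMIs per cell, but nothing ties a suffix to a pool or a cell to a time. The cells were therefore treated as 1 sample, with no test between conditions. The 3 libraries are given as a range, and the calls below also required the same direction in each. A barcode sequence was found in 2 libraries for 13 barcodes (26 cells), and leaving those cells out changed no call given here. The study states a minimum of 5000 UMIs per cell for 9562 cells. The same number of cells was present, of which 90 had fewer, the lowest having 4393.

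Endothelial markers summed to 48.6, 53.0 and 35.4 UMIs per 10,000 in clusters 0, 1 and 2 and to between 4.09 and 6.94 in clusters 3 to 6, so the defining transcripts of the sorted cell type were low in clusters 3 to 6. Cluster 6 was led by megakaryocyte and platelet genes (Ppbp, Pf4, Gp5), cluster 4 by stromal collagens (Col1a1, Col3a1) and cluster 3 by germ or pluripotent cell genes (Dppa5a, Utf1, Dppa3). They are called megakaryocyte or platelet-like, stromal-like and germ or pluripotent-like. Cluster 5 combined granulocyte, macrophage and erythroid genes, and cluster 1 was led by cytokine and chemokine genes (Il1a, Csf3, Cxcl1) and Saa3, an acute-phase gene, so both are called by number. Clusters 0 to 6 had 728, 799, 5396, 239, 518, 1572 and 310 cells. Their median depths were 14061, 7875, 22493, 23684, 19475.5, 36065.5 and 32186 UMIs per cell.

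Kit is a receptor tyrosine kinase for stem cell factor and is best known on haematopoietic stem and progenitor cells and mast cells. The others belong to the cytokine receptor superfamily, which has no kinase of its own and signals through JAK kinases and STAT factors. Epor and Csf3r form homodimers for erythropoietin and for granulocyte colony-stimulating factor (G-CSF). Csf2ra and Il3ra are ligand-binding chains, for GM-CSF and interleukin-3, that need the common beta chain Csf2rb to signal, and Il6st (gp130) is the signalling chain shared by interleukin-6, leukaemia inhibitory factor and related ligands.

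Levels are the summed UMIs of a gene per 10,000 UMIs of a cluster, with exact 95% Poisson intervals, and shares are cells above 0.5 UMIs per 10,000, the threshold of the study's dot plots, with exact binomial intervals. In the deeper cells a single UMI does not reach this threshold. Both cover counting error only. The study clustered the cells on these counts, so differences between clusters are descriptions. Reads came from 3′ transcript ends, and levels are compared between cells and never between genes. A share depends on depth, and it is given with the share in the cluster where the gene was lowest and with both depths.

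Kit (chr5:75574916-75656722, plus strand, GRCm38) was highest in cluster 1, an endothelial cluster, and not in the blood-like clusters. Its level there was 1.11 (1.04 to 1.18), with 1.14, 1.18 and 1.0 in the 3 libraries. Germ or pluripotent-like cluster 3 followed at 0.713 (0.653 to 0.778), then cluster 5 at 0.356 (0.341 to 0.372), cluster 2 at 0.215 (0.208 to 0.223) and cluster 0 at 0.186 (0.163 to 0.211). The steps from cluster 1 to 3, from 3 to 5 and from 5 to 2 exceeded the counting intervals and were seen in each of the 3 libraries. Clusters 2 and 0 overlapped, as did the lowest, stromal-like cluster 4 at 0.0870 (0.0710 to 0.106) and megakaryocyte or platelet-like cluster 6 at 0.0798 (0.0639 to 0.0986). By share of cells the order of clusters 1 and 3 was the opposite, 43.8% against 54.8%, with 6.77% in cluster 6 (median 32186 UMIs). Cluster 1 was the shallowest cluster, with a median of 7875 UMIs against 23684 in cluster 3. With every cell thinned to 5000 UMIs, Kit was detected in 35.3% of cluster 1 and 26.8% of cluster 3, the order of the levels.

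Epor (chr9:21958897-21963506, minus strand) was the one member that was highest in the megakaryocyte or platelet-like cells. In cluster 6 it reached 0.577 (0.533 to 0.625), with 0.603, 0.588 and 0.531 in the libraries. Cluster 5 had 0.132 (0.123 to 0.141), with 0.120, 0.164 and 0.123, and the remaining clusters lay between 0.0114 in cluster 2 and 0.0453 in cluster 0. Thus 44.5% of cluster 6 cells were positive, at a median of 32186 UMIs, against 0.815% of cluster 2 cells at 22493. The summed level of the erythroid gene list was 28.8 for cluster 6 cells, 20.5 for cluster 5 cells and at most 6.92 elsewhere, and its part in the Epor levels was not tested. The 250 bases before the RefSeq start site of Epor (GRCm38.p6, chr9:21963577-21963826, minus strand) are shown because Gata1 was among the genes whose pattern across clusters and libraries was most like that of Epor, with the match to the GATA-type motif AGATAA, searched on both strands and here read as TTATCT, in capitals:
Epor: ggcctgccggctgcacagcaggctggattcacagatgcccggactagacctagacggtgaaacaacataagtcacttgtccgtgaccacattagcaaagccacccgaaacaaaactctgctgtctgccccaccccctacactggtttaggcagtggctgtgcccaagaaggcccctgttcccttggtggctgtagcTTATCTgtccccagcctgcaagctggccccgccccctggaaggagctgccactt

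The match lay at bases -54 to -49 from the start site. Of the 6 members with a RefSeq promoter entry, Epor alone held these letters, which occurred in 9.99% of 32851 promoters of the same length. Csf2rb had no entry.

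Csf3r (chr4:126024550-126044440, plus strand), the receptor that drives neutrophil production, was counted mainly in cluster 5, which held 1230 of its 1414 UMIs. Its level was 0.201 (0.190 to 0.213) there, with 0.181, 0.227 and 0.208 in the libraries, and at most 0.0166 in any other cluster. Megakaryocyte or platelet-like cluster 6 had 8 UMIs, stromal-like cluster 4 had 2 and cluster 0 had 6. Positive cells made up 14.8% of cluster 5 (median 36065.5 UMIs) and 0.386% of cluster 4 (median 19475.5 UMIs). In cluster 6 a Csf3r UMI was found in 6 of 310 cells, none of which passed the threshold. Among the other 6 clusters neighbouring levels overlapped, although clusters 1 and 2 lay above cluster 4.

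The GM-CSF receptor genes were also highest in cluster 5, where macrophage genes summed to 20.3 UMIs per 10,000, against 5.86 in cluster 1 and at most 0.325 elsewhere. Csf2ra (chr19:61223957-61228429, minus strand) had 0.387 (0.372 to 0.403) in cluster 5, with 0.369, 0.376 and 0.417 in the libraries. Clusters 0, 1, 3, 4 and 6 lay between 0.123 and 0.153 with overlapping intervals, and cluster 2 was lowest at 0.0613 (0.0573 to 0.0656). Csf2ra was therefore detected in every cluster, in 28.5% of cluster 5 cells and 4.17% of cluster 2 cells, at medians of 36065.5 and 22493 UMIs. Clusters 0 and 1 had nearly the same level, 0.146 and 0.153, but the positive share was 14.1% in cluster 0 and 6.26% in cluster 1. Thinned to 5000 UMIs the shares were 7.34% and 3.89%. In cluster 1 the transcripts were thus held by fewer cells. The 250 bases before the RefSeq start site of Csf2ra (chr19:61228419-61228668, minus strand) are given because Csf2ra belongs to each of the 3 receptor pairs that stood apart in cluster 5, with matches to GAGGAA, 1 form of an ETS-type motif, in capitals:
Csf2ra: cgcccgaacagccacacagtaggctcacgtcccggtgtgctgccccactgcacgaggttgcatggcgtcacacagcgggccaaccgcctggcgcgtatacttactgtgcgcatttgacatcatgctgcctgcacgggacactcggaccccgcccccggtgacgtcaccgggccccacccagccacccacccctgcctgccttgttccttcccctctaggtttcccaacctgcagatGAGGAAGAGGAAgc

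Both matches stand close to the start site, at bases -14 to -9 and -8 to -3, and the last bases of the window lie within the first exon of the GENCODE annotation. The letters, searched on both strands (TTCCTC on the other), occurred in 23.3% of the promoters of this length, and in 3 of the 6 members with an entry (Kit, Csf3r and Csf2ra).

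Csf2rb (chr15:78325752-78353847, plus strand) was counted at very low levels outside clusters 1, 5 and 6. Its level was 0.313 (0.299 to 0.327) in cluster 5, 0.251 (0.218 to 0.287) in cluster 1 and 0.0696 (0.0548 to 0.0873) in cluster 6, and at most 0.00561 in clusters 0, 2, 3 and 4. Stromal-like cluster 4 had 1 UMI. Cluster 1 had 0.308, 0.312 and 0.124 in the libraries against 0.297, 0.321 and 0.327 in cluster 5, so cluster 5 was higher in 2 of the 3 libraries, and cluster 1 became the highest when library 3 was left out. Positive cells made up 19.1% of cluster 5 and 0.193% of cluster 4, at medians of 36065.5 and 19475.5 UMIs. Csf2rb2, the interleukin-3-specific copy, lies beside it (chr15:78282507-78305721, minus strand) and is nearly identical, so the split of reads between the genes is uncertain. Csf2rb2 was counted at 0.0808 in cluster 1 and 0.0291 in cluster 5.

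Il3ra (chr14:14346275-14356011, plus strand), the partner of Csf2rb in the interleukin-3 receptor, had another pattern. It was highest in endothelial clusters 1 and 0, at 0.279 (0.245 to 0.317) and 0.271 (0.243 to 0.301), which overlapped. Cluster 0 became the highest without library 1, and also when cells were weighted equally (the mean of each cell's UMIs per 10,000). Cluster 5 had 0.154 (0.144 to 0.164), with 0.149, 0.152 and 0.160 in the libraries, and cluster 3 was lowest at 0.0462 (0.0318 to 0.0650). Positive cells made up 24.9% of cluster 0 at a median of 14061 UMIs, and 5.44% of cluster 3 at 23684. Cluster 0, where Il3ra was among its highest, had 7 Csf2rb UMIs in 728 cells.

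Il6st (chr13:112464070-112510086, plus strand) was highest in cluster 1 as well, at 0.934 (0.870 to 1.0), with 0.830, 0.899 and 1.11 in the libraries. Stromal-like cluster 4 and endothelial cluster 0 followed at 0.313 and 0.301, which overlapped, and then cluster 2 at 0.223. Clusters 3, 5 and 6 were lowest and overlapped, at 0.157, 0.142 and 0.136. Positive cells made up 50.3% of cluster 1, although it was the shallowest cluster, and 9.35% of cluster 6, at medians of 7875 and 32186 UMIs.

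**Figure D1:**
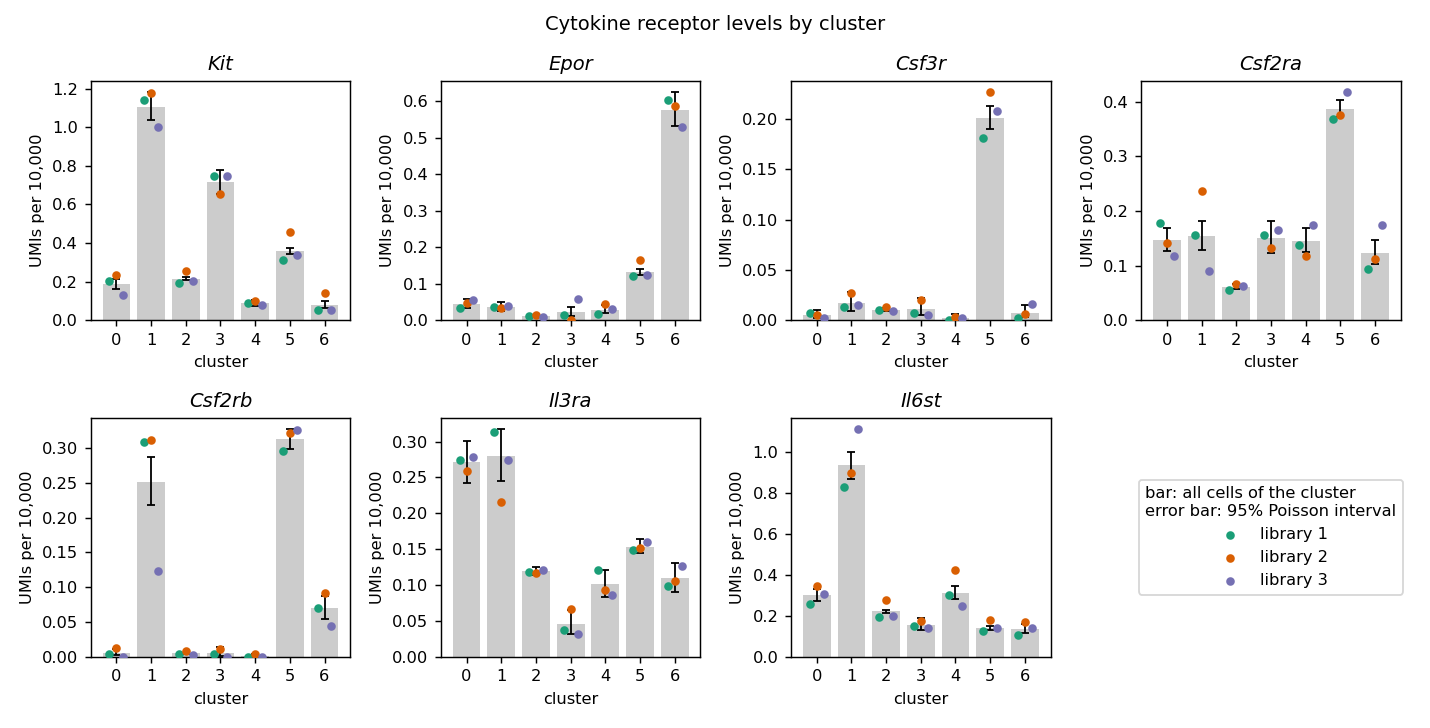
Level of each receptor in clusters 0 to 6, in UMIs per 10,000 UMIs on a linear axis of its own for each gene. Bars are all cells of a cluster, error bars 95% Poisson intervals and coloured points the 3 libraries, whose pools are unknown. Kit and Il6st peak in cluster 1, Epor in cluster 6, and Csf3r, Csf2ra and Csf2rb in cluster 5, while library 3 lies apart from the other libraries for Csf2rb in cluster 1 (0.124 against 0.308 and 0.312).

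The receptors were then compared between clusters 5 and 6, the clusters with blood cell genes. A gene was called when its level over the libraries together differed by at least 2-fold, with the same direction in each library, among genes with at least 20 UMIs in the clusters compared. Kit, Csf3r, Csf2ra and Csf2rb were higher in cluster 5 and Epor was higher in cluster 6. Thus 4 of 7 members were called higher in cluster 5, where 14.1% of 13665 genes were, and 1 was called lower, where 9.45% were. The median log2 ratio of cluster 5 over 6 was 1.65 over the members and 0.06 over all genes tested. Csf3r differed most, by 4.76 (3.78 to 5.98) on the log2 scale, with 6.26, 5.26 and 3.71 in the libraries, and rests on 8 UMIs in cluster 6. Csf2rb, Kit and Csf2ra were higher in cluster 5 by 2.17 (1.84 to 2.52), 2.16 (1.85 to 2.49) and 1.65 (1.40 to 1.91). The log2 ratio of Epor was -2.13 (-2.28 to -1.98), with -2.32, -1.84 and -2.11 in the libraries. Il3ra, at 0.49 (0.21 to 0.78), and Il6st, at 0.06 (-0.19 to 0.32), stayed under 2-fold.

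Against endothelial clusters 0, 1 and 2 together, clusters 5 and 6 together had higher Csf3r, Csf2rb, Epor and Csf2ra. For Csf3r this held for cluster 5 and not for cluster 6, at 0.201 and 0.00743 against 0.0103. Csf2ra was 0.387 in cluster 5 and 0.123 in cluster 6 against 0.0727, so cluster 6 stayed under 2-fold. Cluster 6 was not above each endothelial cluster, since Csf2ra was 0.146 in cluster 0 and 0.153 in cluster 1, with overlapping intervals. Csf2rb was 0.313 in cluster 5 and 0.0696 in cluster 6. It was 0.251 in cluster 1, above cluster 6, and 0.00556 and 0.00484 in clusters 0 and 2. In the order Csf3r, Csf2rb, Epor and Csf2ra, the log2 ratios were 4.07 (3.83 to 4.31), 3.97 (3.79 to 4.15), 3.70 (3.50 to 3.90) and 2.26 (2.16 to 2.36). Thus 4 of 7 members were called higher, where 13.8% of 15771 genes were. None was called lower, where 22.5% of genes were, and the median log2 ratio was 2.26 over the members and -0.11 over all genes tested. Il6st, at -0.91 (-1.01 to -0.81), lay just inside 2-fold. It passed that limit when cells were weighted equally (-1.11) or thinned (-1.05). Kit, at 0.28 (0.20 to 0.35), and Il3ra, at 0.08 (-0.03 to 0.19), stayed under 2-fold, and with cells weighted equally both were at or below 0 (-0.02 and -0.08). The value of Kit joins 0.356 in cluster 5 and 0.0798 in cluster 6, on either side of the 0.260 of clusters 0, 1 and 2. For Csf2rb the libraries gave 3.38, 3.8 and 5.13, the highest in library 3, where cluster 1 had the least Csf2rb.

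Because Kit, Il3ra and Il6st peaked within the endothelium, cluster 1 was also set against clusters 0 and 2, a comparison chosen after the levels were seen. The count is therefore a description of what led to the comparison. Here 6 of 7 members were called higher, where 19.6% of 14886 genes were, and none lower, where 14.6% were, with medians of 1.33 over the members and 0.09 over all genes tested. Csf2rb had the largest log2 ratio, 5.68 (5.29 to 6.08), or 4.94 with cells weighted equally and 4.48 with thinning, followed by Kit at 2.38 (2.27 to 2.48) and Il6st at 2.03 (1.91 to 2.14). These 3 calls were kept under each alternative run, a limit of 4-fold included. Epor at 1.33 (0.73 to 1.89), Csf2ra at 1.17 (0.89 to 1.43) and Il3ra at 1.09 (0.89 to 1.28) were near the limit. With cells weighted equally their ratios were 0.89, 0.31 and 0.95, under 2-fold. Csf2ra also had 0.39 with thinning and 0.19 without the deepest 10% of cells. In the cluster 1 cells without a Tyrobp UMI, described further on, Csf2ra was 0.0356, lower than the 0.0683 of clusters 0 and 2. Csf3r, at 0.75 (-0.16 to 1.54), was not called.

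**Figure D2:**
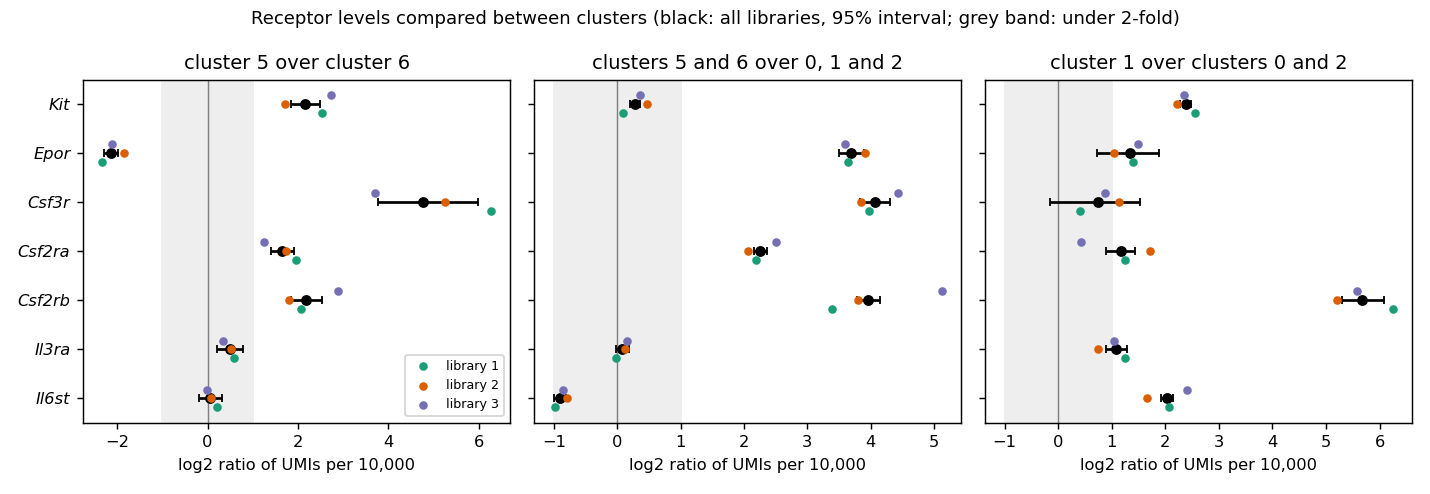
Log2 ratio of each receptor's level (horizontal axis) for cluster 5 over 6, clusters 5 and 6 over 0, 1 and 2, and cluster 1 over 0 and 2. Black points with bars are all libraries with 95% exact intervals, coloured points the single libraries, and the grey band marks differences under 2-fold. Epor alone lies left of the band in the comparison of clusters 5 and 6 (-2.13), and Csf2rb lies farthest right for cluster 1 (5.68).

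Cluster 5 was not uniform, and its cells were split by transcripts of Mpo, a granulocyte progenitor enzyme, and C1qb, a macrophage complement gene, after each was thinned to 5000 UMIs. There were 326 cells with Mpo and no C1qb, 696 with C1qb and no Mpo, 42 with both and 504 with neither. Granulocyte progenitor genes summed to 30.1 UMIs per 10,000 in the Mpo cells and 1.60 in the C1qb cells, and macrophage genes to 1.09 and 45.6. Neutrophil genes summed to 33.2 and 0.112. Cells near the limit were common for Mpo, with exactly 1 UMI in 142 cells, and fewer for C1qb, with 80.

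Kit separated these cells more than any other member. It was 0.50 (0.465 to 0.538) in Mpo cells, with 0.435, 0.671 and 0.478 in the libraries, and 0.0414 (0.0339 to 0.0501) in C1qb cells, with 0.0433, 0.0679 and 0.0197. The log2 ratio was 3.60 (3.30 to 3.90). Csf2rb was also higher in Mpo cells, 0.564 against 0.285, a log2 ratio of 0.99 (0.84 to 1.13), while Csf2ra was level at 0.485 and 0.474, a ratio of 0.03 (-0.10 to 0.17). The alpha and beta chains of the GM-CSF receptor therefore did not vary in proportion between these cells. Il3ra differed by 0.47 (0.25 to 0.69) and Csf3r by 0.35 (0.16 to 0.53), both higher in Mpo cells in each library. Il6st was higher in C1qb cells, 0.225 against 0.0687, a log2 ratio of -1.71 (-2.03 to -1.40).

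Epor did not follow either set, at 0.0415 in Mpo cells and 0.0422 in C1qb cells, but lay in the cells with neither, at 0.330 (0.304 to 0.356). A further split by Klf1, an erythroid transcription factor, was made after these values were seen. The 104 of those cells with a Klf1 UMI had Epor at 0.743 (0.669 to 0.823), with 0.665, 0.875 and 0.738 in the libraries, and the 400 without had 0.188 (0.166 to 0.211). Erythroid genes summed to 99.7 and 45.5 UMIs per 10,000. The Klf1 cells were deeper, with a median of 48904 UMIs, and 77 of the 127 Klf1 cells of the whole cluster had a single Klf1 UMI. Kit was high in both, at 0.708 and 0.674, whereas Csf3r had 2 UMIs in the Klf1 cells and 0.142 in the others. In cluster 5 as a whole, Klf1 cells had Epor 8.82-fold higher than cells without and Il6st 4.82-fold lower. The erythroid difference varied between libraries there, with log2 ratios of 0.49, 7.68 and 1.28 for the globin gene Hbb-y.

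The Csf2rb counted in cluster 1 was also unevenly spread. A split by Tyrobp, a signalling adaptor of myeloid cells, was chosen after Tyrobp had appeared among the genes most like Csf2rb. It gave 73 cells with a UMI and 672 without, and 21 of the 73 had exactly 1. Csf2ra was 0.904 in Tyrobp cells and 0.0356 in the others, a log2 ratio of 4.67 (4.02 to 5.36), and Csf2rb was 0.966 and 0.141, a ratio of 2.78 (2.37 to 3.18). Csf3r had 12 UMIs in the 73 cells and 2 in the 672. Macrophage genes summed to 40.2 and 0.548 UMIs per 10,000 in the same cells, and endothelial genes to 17.9 and 58.6. Kit, Il6st and Il3ra went the other way, and Epor had no UMI in the Tyrobp cells and 30 in the others. Erythroid genes summed to 0.0798 in the Tyrobp cells and 6.74 in the others, and megakaryocyte or platelet genes to 9.47 and 0.788. Kit was 0.239 in Tyrobp cells and 1.25 in the others, a log2 ratio of -2.39 (-3.0 to -1.84), and Il6st was 0.487 and 0.999, a ratio of -1.04 (-1.46 to -0.64). The ratio of Il3ra was -1.30 (-2.20 to -0.52), lower in each library. The cells without Tyrobp still had more Csf2rb than clusters 0 and 2, at 0.141 against 0.00556 and 0.00484. Doublets were not called here, and their part in these values was not tested.

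In endothelial cluster 0, Kit differed between cells with and without Runx1, the transcription factor of blood emergence. Runx1 was detected in 53 cells, 31 of them with 1 UMI, and not in 669. Kit was 0.697 (0.552 to 0.869) in the Runx1 cells and 0.136 (0.115 to 0.159) in the others, a log2 ratio of 2.36 (1.95 to 2.76), with 1.95, 2.69 and 2.33 in the libraries. At 5000 UMIs, Kit was detected in 30.2% and 6.28% of these cells. Its ligand gene Kitl was lower in the Runx1 cells, 0.115 against 0.866, a log2 ratio of -2.92 (-3.83 to -2.14). Il3ra, Il6st and Csf2ra had intervals that included 0. Endothelial genes summed to 29.3 in the Runx1 cells and 50.4 in the others, macrophage genes to 0.115 and 0.142 and erythroid genes to 0.450 and 7.57. The log2 ratios of the globin gene Hbb-y were -0.47, -5.28 and -2.28 in the libraries. Spi1, a myeloid transcription factor gene, was 6.09-fold higher in the Runx1 cells, in each library, and the Runx1 cells were deeper, at medians of 19975 and 13938 UMIs. In cluster 2 the same split left Kit level, at 0.204 in 64 Runx1 cells and 0.216 in 5313 others, a log2 ratio of -0.08 (-0.76 to 0.52). There 61 of the 64 had exactly 1 Runx1 UMI. Csf3r, at 2.48 (1.01 to 3.64) from 6 UMIs, and Epor, at 2.06 (0.41 to 3.31) from 5, were higher in those Runx1 cells, in 2 and 1 of the 3 libraries. In the same cells granulocyte progenitor genes summed to 0.398 against 0.0425. Macrophage genes summed to 0.398 against 0.118 and megakaryocyte or platelet genes to 0.907 against 0.239. The difference between the clusters was not tested.

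Cluster 6 was split by Kdr, an endothelial receptor gene, into 139 cells with a UMI and 170 without, 89 of the former with 1 UMI. Epor was 0.536 in Kdr cells and 0.604 in the others, a log2 ratio of -0.17 (-0.42 to 0.07). Kit was 0.107 and 0.0628, a ratio of 0.76 (0.12 to 1.41), higher in Kdr cells in the 3 libraries. Csf2rb was 0.0487 and 0.0826, a ratio of -0.76, lower in 2 of 3 libraries. For Csf2ra, Csf3r, Il3ra and Il6st the intervals included 0. Erythroid genes summed to 17.7 in Kdr cells and 35.7 in the others, and endothelial genes to 10.3 and 4.89. The erythroid difference varied between libraries, with log2 ratios of -6.34, 0.20 and -1.59 for the globin gene Hbb-y.

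**Figure D3:**
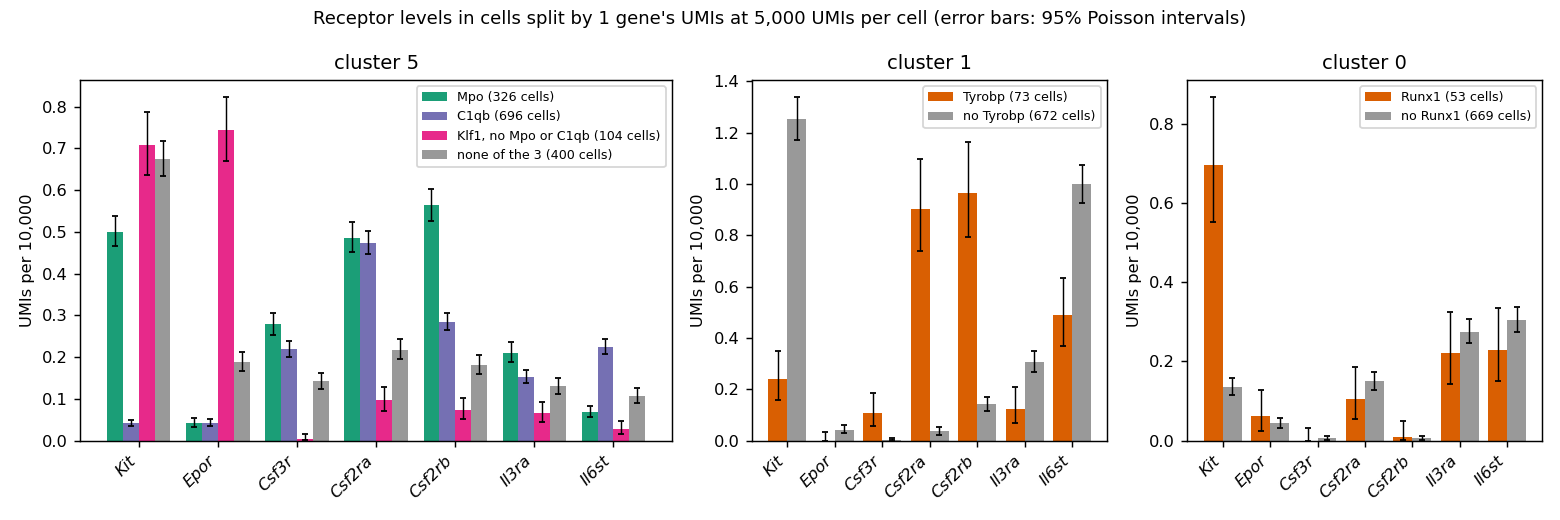
Level of each receptor, in UMIs per 10,000 UMIs, in cells of clusters 5, 1 and 0 split by UMIs of Mpo, C1qb and Klf1, of Tyrobp, and of Runx1, with each cell thinned to 5000 UMIs for the split. Bars are all cells of a subset and error bars 95% Poisson intervals. Epor stands out in the Klf1 cells of cluster 5 (0.743), Csf2ra and Csf2rb in the Tyrobp cells of cluster 1 (0.904 and 0.966) and Kit in the Runx1 cells of cluster 0 (0.697).

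Co-detection was asked next: whether cells of cluster 5 with a UMI of one receptor more often had a UMI of another. In 1568 cells thinned to 5000 UMIs, Csf2ra was detected in 271, Kit in 233, Csf2rb in 193, Csf3r in 149, Il3ra in 129, Il6st in 123 and Epor in 77. No receptor was found in 44.6% of cells, 1 in 39.2%, 2 in 13.1%, 3 in 2.74% and 4 in 0.319%. The shares of a second receptor in cells with and without the first had non-overlapping intervals for 3 of 21 pairs, 2 of them more often together and 1 less often. These counts depended on depth and on the random draw, with 11 and 7 pairs when cells were not thinned, 4 and 4 at 10000 UMIs, and 4 less frequent pairs in another draw, which left out the 1 found here.

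The 2 chains of the GM-CSF receptor formed the clearest pair. Csf2rb was detected in 24.0% (19.0 to 29.5) of cells with Csf2ra and in 9.87% (8.30 to 11.6) of cells without, and 65 cells had both where the product of the separate shares gives 33.4. The libraries gave 23.2% against 11.8%, 20.95% against 8.15% and 29.9% against 9.69%. In Mpo cells the shares were 40.9% (29.0 to 53.7) and 14.6% (10.6 to 19.5). In C1qb cells they were 19.88% (14.01 to 26.9) and 11.03% (8.50 to 13.99), with intervals just apart. In cells with neither they were 8.11% and 5.78%, and the intervals overlapped. The other alpha chain that pairs with Csf2rb, Il3ra, was detected in 9.84% of cells with Csf2rb and 8.0% of cells without, and these intervals overlapped.

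Csf2ra was also found with Csf3r, in 25.5% (18.7 to 33.3) of Csf3r cells and 16.4% (14.5 to 18.5) of the others. This pair was less stable, with 20.0% and 20.7% in library 3 and overlapping intervals with another random draw (21.8% and 15.9%) or without library 1 or library 2 (25.3% and 17.0%, 23.9% and 17.4%). Csf2ra was less frequent in Kit cells, 7.30% (4.31 to 11.4) against 19.0% (17.0 to 21.2). Another random draw gave 10.8% against 17.3%, with intervals that overlapped. Within Mpo cells the shares were 9.09% and 23.1% and within C1qb cells 20.0% and 23.2%, and in both the intervals overlapped. Kit and Epor, which are co-expressed in early erythroid cells, were found together in 12 cells where the product gives 11.4. Not thinned, they were found together in 180 cells where the product gives 101.7, and depth then differs between the cells compared.

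In the 309 cells of cluster 6 at this depth, Epor was detected in 75, Il6st in 23, Csf2ra in 18, Il3ra in 14, Kit in 12, Csf2rb in 7 and Csf3r in 0. Of the Kit cells, 11 were from library 2 and 1 from library 1. At most 5 cells had any one pair, Epor with Il6st, where the product gives 5.58, and 12 of 21 pairs had no cell. Joint detection was therefore not measurable there at this depth.

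**Figure D4:**
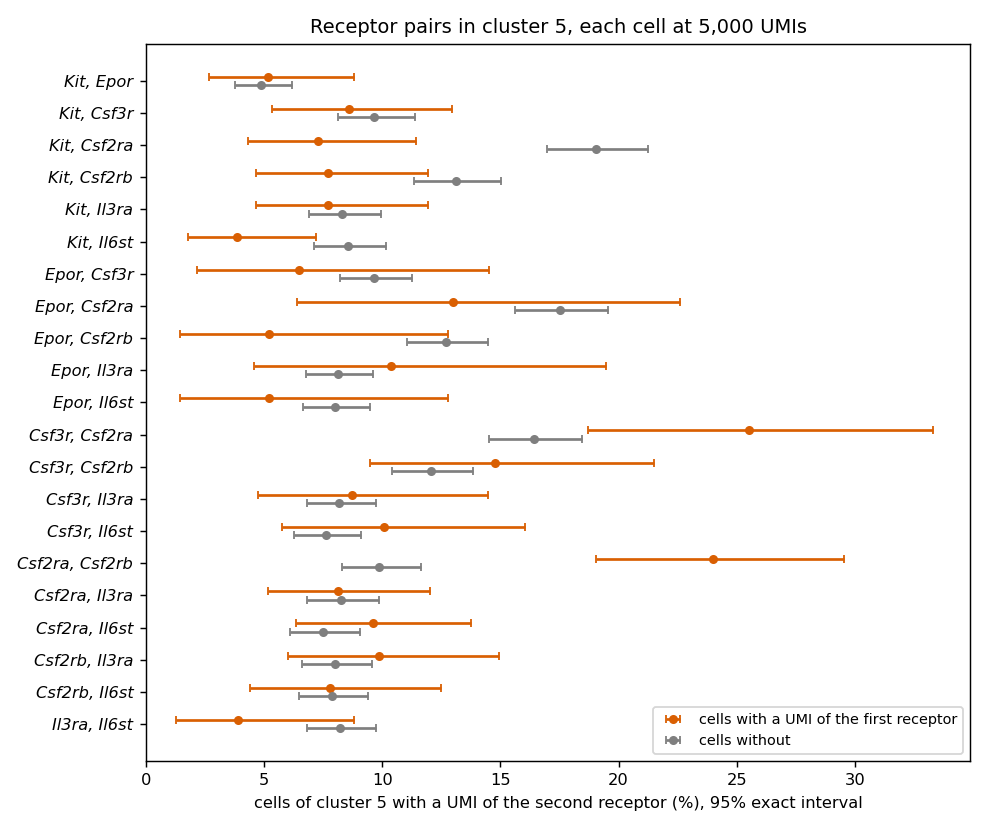
Share of cluster 5 cells with a UMI of the second receptor of each pair (horizontal axis, percent), among cells with a UMI of the first (orange) and without (grey), each cell thinned to 5000 UMIs, with 95% exact binomial intervals. The pair Csf2ra and Csf2rb is farthest apart (24.0% and 9.87%), and Kit with Csf2ra lies in the opposite direction (7.30% and 19.0%).

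The genes whose levels were most like each receptor's were found over the 21 combinations of cluster and library, by Pearson's r of log2 levels with 0.1 added. Combinations of one library share its depth, so r is given as a description. Epor was closest to Tspan32 (r = 0.99), Unc13d (0.98) and Gata1 (0.98), an erythroid and megakaryocyte transcription factor whose level was 1.51 in cluster 6 and 0.217 in cluster 5. Csf3r was closest to Cx3cr1 (0.99), Mrc1 (0.99) and Pld4 (0.98), and Csf2rb to Ctsz (0.98), Rgs1 (0.97) and Tyrobp (0.96). Csf2ra had no close match, with 0.86 for Pld4, Apbb1ip and Glipr1. Il6st was closest to Emp1 (0.97), Nbeal1 (0.97) and Ypel2 (0.97), Il3ra to Irf2 (0.96), Glmp (0.95) and Orai1 (0.94), and Kit to Pisd (0.95), Gclc (0.94) and Irf1 (0.93).

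The receptors' ligands, partner receptors and signalling genes were described from a list of 69, also chosen with earlier results of these data known. Between clusters 5 and 6, 61 could be tested, of which 21 were called higher in cluster 5 and 11 lower, with a median log2 ratio of 0.30, where 14.1% and 9.45% of all genes were. Other receptors made up 10 of the 21. Csf1r, the macrophage colony-stimulating factor receptor, differed by 5.67 on the log2 scale (1.84 against 0.0362 UMIs per 10,000), Il6ra, the partner of Il6st, by 3.71, and Flt3, whose ligand was in the medium, by 5.95 (3.46 to 11.3), with 1 UMI in cluster 6. Of 16 kinases and STATs, 3 were higher in cluster 5 and 2 in cluster 6, among them Jak2 (log2 ratio -1.59), the kinase of Epor. Of 14 target genes, 5 were higher in cluster 5, such as Myc (1.89) and Id1 (1.35), and 3 in cluster 6, such as Bcl2l1 (-1.95), while Pim1 (-0.31) and Pim2 (-0.93) were not called. Of 12 genes listed as inhibitors, 1 was higher in cluster 5, Ptpn6 (1.36), and 4 in cluster 6, such as Cish (-2.99) and Socs2 (-1.04). Ptpn11 (-2.58) was counted among these 4 by the list alone.

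Against clusters 0, 1 and 2, 64 of the 69 were tested in clusters 5 and 6, of which 21 were called higher and 18 lower, with a median of 0.28, where 13.8% and 22.5% of all genes were. Ligands were mostly lower, 6 of 9, with Kitl at 0.161 against 1.47 and Csf3 at a log2 ratio of -5.43. Some of the lower ligands were counted mostly in cluster 1. Lif was 0.108 there and at most 0.00115 in clusters 0, 2, 5 and 6. Csf1 was 0.197, 1.04 and 0.0400 in clusters 0, 1 and 2, and 0.0375 and 0.00557 in clusters 5 and 6. The gp130 partners Lifr (-2.42) and Osmr (-2.72) were lower too, next to Il6st at -0.91, but Il6ra was higher (5.45). Target genes were called in both directions, 4 higher, such as Pim1 (1.57) and Pim2 (2.70), and 4 lower, such as Id1 (-1.21), with Bcl2l1 (0.33) not called. Here too the clusters differed, with Bcl2l1 at 0.171 in cluster 5 and 0.658 in cluster 6, against 0.194 in clusters 0, 1 and 2. Inhibitors also went both ways, 4 higher, such as Ptpn6 (4.70) and Dok2 (5.84), and 3 lower, such as Cish (-1.15) and Socs2 (-1.41). The value of Cish joins 0.0195 in cluster 5 and 0.155 in cluster 6, on either side of the 0.0883 of clusters 0, 1 and 2. Of 16 kinases and STATs, 5 were higher, such as Stat5a (1.90), and 1 was lower, while Stat5b (0.50), Stat3 (0.49) and Jak2 (0.11) were not called. Jak2 was 0.388 in cluster 6 and 0.129 in cluster 5, against 0.155 in clusters 0, 1 and 2.

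In cluster 1, 33 of 62 were called higher than in clusters 0 and 2, and 2 lower, Il11ra1 and Ccnd3, with a median of 1.26, where 19.6% and 14.6% of all genes were. Ligands accounted for 8 of the 33. Kitl reached 4.25 UMIs per 10,000 in cluster 1, the cluster where Kit was also highest, and Csf3 reached 3.75, while its receptor Csf3r had 14 UMIs in the cluster. Kit was 1.18 in cluster 1 cells with a Kitl UMI and 0.998 in those without, a log2 ratio of 0.24 (0.03 to 0.44), higher in 2 of 3 libraries. Macrophage genes summed to 1.96 and 13.5 UMIs per 10,000 in these cells and endothelial genes to 59.2 and 41.4. Next to Il6st, cluster 1 had more Il6 (log2 ratio 7.58), Lif (7.69), Osmr (4.35), Jak2 (2.36), Stat3 (2.22) and Socs3 (3.48), the feedback inhibitor of gp130. Among the other gp130 partners, Il6ra (4.28) was higher, Il11ra1 (-1.51) was lower, Lifr (-0.69) was lower in each library but under 2-fold, and Cntfr (0.28) was not called. Il3 had no UMI in any cluster, and Epo had 1, in cluster 5. Flt3l was not analysed here.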

How the data were processed

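Single-cell RNA was measured in 3 pools of sorted cells. Per the labels, the authors aligned reads to mm10 with Cell Ranger 3.1.0 and also used Seurat 3.1.5. Libraries were joined with removal of batch effects, and the authors deposited raw UMI counts per gene and cell, a table of natural log values of 1 plus counts per 10,000, and the cluster of each cell. The deposited natural log values were used only as a check, since they followed from the counts. Here, 27998 gene rows were summed by name to 27994 (353 rows carried no name). Levels, shares, ratios and their exact 95% intervals were computed from summed counts with Python 3.11.15, numpy 2.4.6, pandas 2.3.3 and scipy 1.17.1, and figures with matplotlib 3.10.9. Cells of under 5000 UMIs, 90 in all, were left out where cells were thinned (random seed 1). A ratio was called at 2-fold with 1 direction in the 3 libraries and at least 20 UMIs. The calls were tested on simulated Poisson counts with known 4-fold changes in well-counted genes. Variation between cells or libraries beyond counting error was not simulated, nor were 2-fold changes in sparsely counted genes. No doublet caller was run, as the study's methods state that singlets were kept. Gene positions are from GENCODE on GRCm38 and promoters from RefSeq on GRCm38.p6. Named genes were the members, the pathway and marker lists, and for each member the 3 genes most like it (among genes reaching 0.5 UMIs per 10,000). The members and lists were chosen with earlier results of these data known. Alternatives changed the fold, the minimum count, the weighting of cells, the depth, the threshold, the pseudocount and the libraries kept. All samples were in 1 group, so no test was run.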

Additional observations from a re-analysis of the deposited data

How the results depend on the processing

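The calls of cluster 5 over 6 were kept under the alternatives run, except that Csf2ra was not called at 4-fold, and thinning left Csf3r with no UMI in cluster 6. In clusters 5 and 6 against 0, 1 and 2, the 4 higher members were also kept, and the count of lower members went from 0 to 1 (Il6st) with cells weighted equally, with thinning and at 1.5-fold. Higher members in cluster 1 went from 6 to 3 with cells weighted equally, to 3 at 4-fold, to 4 with thinning (Epor 0.71 and Csf2ra 0.39 lost) and to 5 without the deepest 10% of cells (Csf2ra 0.19 lost). There Csf2ra was not called without library 2 (log2 ratio 0.96) and Il3ra not without library 1 (0.93). In the other direction, Csf3r was 1.68-fold higher in cluster 1, with the same direction in each library, and so passes a limit of 1.5-fold. Of the pairs of cluster 5, 2 were more frequent together at 5000 UMIs, 11 not thinned, 4 at 10000 UMIs and 1 to 2 when each library was left out. Less frequent together was 1 pair, against 7 not thinned, 4 at 10000 UMIs, 4 with another random draw and 1 to 2 with a library left out. In cluster 6 the count of more frequent pairs went from 0 to 1 (Epor and Il6st) when cells were not thinned. Which gene of a pair is taken first matters for this count. Not thinned, Csf2ra was detected in 48.7% (32.4 to 65.2) of Csf2rb cells and 25.5% (20.4 to 31.1) of the others. These intervals were apart, while those of Csf2rb by Csf2ra overlapped. The cause of these changes was not tested. No value of a called result changed direction. Each library held cells of every cluster, so clusters can be compared within libraries. No paired test was run, because the library suffixes are tied to no sample and the cells were taken as 1 sample. Ratios within each library are given for some of the pooled ratios. At the depth of single cells, joint detection in cluster 6 and Csf3r outside cluster 5 were near the limit of counting.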
